A study of Drosophila melanogaster with 6 samples.

Results

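The 9 genes described here encode the core of the Drosophila phototransduction cascade: the 3 subunits of the visual G protein (Galphaq, Gbeta76C and Ggamma30A), the phospholipase C norpA, the light-activated channels trp and trpl, and 3 proteins of the signalplex, inaC, inaD and ninaC. They were chosen by name, as known components of the cascade. They are 9 of 14537 genes or groups of overlapping genes counted in RNA-seq libraries of dissected eyes. Of these 9, 7 were counted alone. Galphaq was counted together with CG45086, and inaD together with RpL23, which encodes a protein of the large ribosomal subunit, so the values of these 2 rows belong to both genes of each group and cannot be split.

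The eyes came from male flies that carry the w and ry[506] alleles, a UAS-GFP-Msp300KASH insertion at attP2 and an rh1-GAL4 insertion on the third chromosome, so that the Rh1-Gal4 driver directs a KASH-GFP fusion protein to the outer photoreceptors. Eyes were taken at 40 and at 10 days of age, with 3 libraries each, which the study describes as biological replicates. Flies of both ages carried the same transgenes and were kept at 25 °C in 12:12 cycles of light and dark, so all values come from 1 transgenic background. RNA was total RNA depleted of ribosomal RNA. A dissected eye also holds cone, pigment and glial cells, and in such bulk RNA fewer cells of a type and less RNA per cell cannot be told apart.

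In fly photoreceptors, rhodopsin that has absorbed light activates a Gq protein, whose alpha subunit in turn activates phospholipase C. The enzyme cleaves a membrane phosphoinositide, and the TRP and TRPL cation channels then open and depolarize the cell. The scaffold protein INAD, with several PDZ domains, holds phospholipase C, TRP and the eye protein kinase C in one complex, the signalplex, in the light-sensing microvilli of the rhabdomere.

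Gene counts totaled 8476220 to 12686867 per library at day 40 and 8946125 to 15029770 at day 10, and the 9 rows took 1.85 to 2.00% of them at day 40 and 1.66 to 2.13% at day 10. Each member had between 3743 and 92570 counts in every library, so counting error was small beside the spread between libraries. Photoreceptor genes were abundant in every library: ninaE, which encodes the main rhodopsin, alone took 4.75 to 6.11% of gene counts at day 40 and 4.66 to 7.60% at day 10. Rows listed as markers of brain neurons and of glia also had counts. Summed normalized counts were 18867 to 21426 (day 40) and 18910 to 25768 (day 10) for 6 neuronal rows. For 5 glial rows they were 19543 to 21609 (day 40) and 17574.5 to 24105 (day 10). Much of the neuronal sum was brp, with means of 9733 at day 40 and 9400 at day 10. The part of brain tissue in these sums was not tested. Of the 6 libraries, 2 at day 10 stood apart. Replicate 3 had the lowest value of the 6 libraries for 8 of the 9 members, against 20.7% of all tested genes, and the highest summed fat body and blood markers (12706, against 7479 and 7803 in the other day 10 libraries and 3445 to 4251 at day 40). In replicate 1 of day 10, 7 of the 9 members had their highest value, against 22.3% of all tested genes. Internal exons were covered unevenly in this library, as described for usage below. The part of these differences in the results was not tested. The log2 expression changes of the 9 members ran from -0.22 to 0.33 without replicate 1 and from -0.55 to 0.10 without replicate 3.

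None of the 9 members differed in expression between day 40 and day 10 at an adjusted p under 0.1 (edgeR quasi-likelihood test with Benjamini-Hochberg adjustment over all genes). Over all 9255 genes or groups tested, 4.12% were called, 198 higher and 183 lower at day 40. At an unadjusted p under 0.05, 0 of the 9 passed, beside 14.3% of all rows tested. DESeq2 called none of the 9, beside 6.22% of all rows with an adjusted p. The median log2 change of the 9 rows was -0.035, beside -0.0067 over all tested rows, with 4 members above 0 and 5 below. The normalized counts (counts divided by the size factor of each library) of the 2 ages overlapped for each of the 9 members, beside 20.2% of all tested rows whose ages did not overlap. The spread was wider at day 10, where the SD was 16.4 to 28.3% of the mean over the 9 members, than at day 40, where it was 3.41 to 16.0%.

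**Figure D1:**
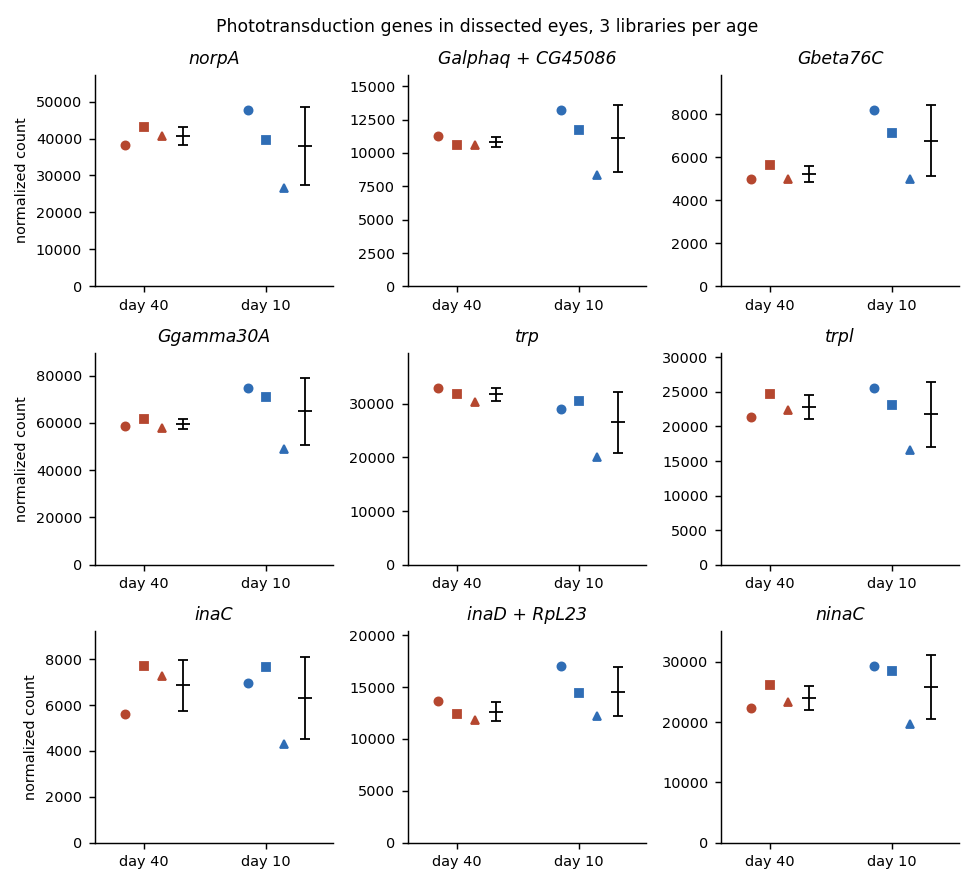
Normalized counts (y axis, linear from 0) of the 9 genes in each library at day 40 (red, left) and day 10 (blue, right). Circles, squares and triangles are replicates 1, 2 and 3, and black bars give the mean and SD of the 3 libraries. The day 10 values spread more than the day 40 values for each gene, and the triangle of day 10 replicate 3 is the lowest of the 6 values for every gene but the inaD + RpL23 group.

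The G protein subunits came first in the cascade. Gbeta76C, the eye-enriched beta subunit of the visual G protein (chromosome 3L, 19687637 to 19689992, build BDGP6), had the lowest unadjusted p of the 9. Its normalized counts were 4991, 5636 and 5002 at day 40, against 8215, 7156 and 4978 at day 10. The 3 day 40 values lay below the first 2 day 10 values, while day 10 replicate 3 lay just under all 3 of them. The log2 change was -0.38 (SE 0.17, 95% interval -0.77 to 0.01, adjusted p = 0.361, edgeR quasi-likelihood test). Without day 10 replicate 3 the log2 change was -0.55 with an adjusted p of 0.0763, and Gbeta76C was then called. Without day 10 replicate 1 the log2 change was -0.22 with an adjusted p of 0.601. Gbeta76C was the 1 member that any library left out brought past the threshold.

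Ggamma30A, which encodes the gamma subunit that pairs with Gbeta76C (2L, 9256563 to 9302494), had the highest counts of the 9 genes. They were 58716, 61710 and 57843 at day 40, against 74706, 71050 and 48771 at day 10. Here too the day 40 values lay between those of day 10 replicate 3 and those of the other pair (log2 change -0.13, SE 0.18, adjusted p = 0.839 in edgeR). The change was -0.012 without day 10 replicate 1 and -0.28 without replicate 3. The group of Galphaq and CG45086, which holds the alpha subunit that activates phospholipase C, had 11286, 10567 and 10596 normalized counts at day 40, against 13229, 11686 and 8339 at day 10. Its values overlapped between the ages, with a ratio of 0.976 for day 40 over day 10 (95% interval 0.753 to 1.27).

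Downstream of the G protein, norpA (X, 4322626 to 4365408), the phospholipase C beta that cleaves the phosphoinositide, had 38348, 43246 and 40742 normalized counts at day 40, against 47754, 39473 and 26665 at day 10. All 3 day 40 values fell inside the range of day 10. Day 40 was 1.08-fold day 10, with a 95% interval of 0.778 to 1.49.

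Of the channel genes, trp (3R, 29914521 to 29920289), which encodes the main light-activated channel, had the largest positive change among the 9. Normalized counts were 32975, 31935 and 30438 at day 40, against 29140, 30629 and 20071 at day 10. The lowest day 40 value lay just under the highest day 10 value, and the log2 change was 0.26 (SE 0.17, adjusted p = 0.570 in edgeR). Without day 10 replicate 3, the lowest library, it was 0.10 (adjusted p = 0.706). The gene trpl (2R, 9753697 to 9765518), which encodes the second channel, had 21370, 24699 and 22363 at day 40, against 25568, 23115 and 16535 at day 10, so its day 40 values lay within the day 10 range.

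In the signalplex, inaC (2R, 16898535 to 16901575), the eye protein kinase C that takes part in ending the light response, had 5616, 7694 and 7259 normalized counts at day 40, against 6950, 7677 and 4288 at day 10. The group of inaD, the scaffold, and RpL23 had 13684, 12366 and 11855 at day 40, against 17012, 14423 and 12247 at day 10. The myosin and kinase gene ninaC (2L, 7377702 to 7384344), whose product also binds the scaffold, had 22426, 26240 and 23427 at day 40, against 29287, 28545 and 19652 at day 10. None of these 3 rows separated the ages, and their log2 changes were 0.13, -0.21 and -0.10. Without day 10 replicate 1 these were 0.20, -0.079 and -0.0038, and without replicate 3 they were -0.077, -0.30 and -0.25. The 95% intervals for all 9 members lay between folds of 0.587 and 1.56 for day 40 over day 10.

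Levels were compared between genes per kilobase of exonic parts (stretches of exon that belong to one fixed set of transcripts) found in every annotated transcript of a gene. A read that spans several parts was counted in each, so this scale sits above gene counts per length. Ggamma30A stood first, with 59991 ± 2589 normalized counts per kb at day 40 and 69901 ± 20679 at day 10 (SD, n = 3 each), read over 2 parts of 0.849 kb in all. It was followed at day 40 by trp at 10637 ± 421, trpl at 8555 ± 613, ninaC at 7822 ± 609, norpA at 7213 ± 450, Gbeta76C at 6070 ± 410 and inaC at 5538 ± 857. Of the neighbours in this order, trpl and ninaC, ninaC and norpA, and Gbeta76C and inaC lay within their summed SDs of each other, while trp stood clear of trpl and norpA of Gbeta76C. At day 10 the means were 8806 for trp, 8115 for trpl, 7964 for ninaC, 7119 for Gbeta76C, 6757 for norpA and 4968 for inaC, with SDs of 1218 to 1826, and the 5 genes from trp to norpA did not differ beyond that spread. The groups of Galphaq and inaD have no positions in the authors' table and were left out of this scale.

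Of the 6 libraries, day 10 replicate 1 held the highest value of 7 of the 9 members and day 10 replicate 3 the lowest of 8. The genes were therefore also set against each other inside each library, as shares of the summed counts of the 7 genes counted alone. This view was added after seeing the data. Shares are tied to each other, since they sum to a fixed total. On this scale 4 of the 7 genes had shares that did not overlap between the ages. Over all 9255 tested rows, counts relative to the same sum did not overlap for 11.2%. These figures are not like for like, since the 7 genes make up the sum and other rows do not. No excess is read from them. Each of the 4 had an exact permutation p of 0.1 (two-sided), the smallest that 3 libraries against 3 can give, and an adjusted p of 0.175 over the 7 genes.

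The share of Gbeta76C was 2.71, 2.80 and 2.67% at day 40, against 3.71, 3.45 and 3.53% at day 10. Every day 40 value lay below every day 10 value, with a gap between the ages larger than the range within either one. The difference in mean log2 share was -0.38, and it stayed between -0.41 and -0.36 with any library left out. With summed exonic part counts in place of gene counts, though, the ages overlapped: 3.15, 3.21 and 3.05% at day 40, against 3.15, 3.99 and 4.19% at day 10, a log2 difference of -0.26. The low day 10 value there was replicate 1, whose internal parts of Gbeta76C had few counts.

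For trp the direction was the other way. Its share was 17.9, 15.9 and 16.3% at day 40, against 13.1, 14.8 and 14.2% at day 10, a log2 difference of 0.25 that remained 0.25 with exonic part counts, where the ages again did not overlap. The largest gene, Ggamma30A, took 31.8, 30.7 and 30.9% at day 40, against 33.7, 34.2 and 34.6% at day 10. It too was apart with exonic part counts, with log2 differences of -0.13 and -0.14 on the 2 scales. For ninaC the shares were 12.2, 13.0 and 12.5% at day 40, against 13.2, 13.7 and 13.9% at day 10, and with exonic part counts its ages overlapped. The shares of norpA, trpl and inaC overlapped between the ages.

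**Figure D2:**
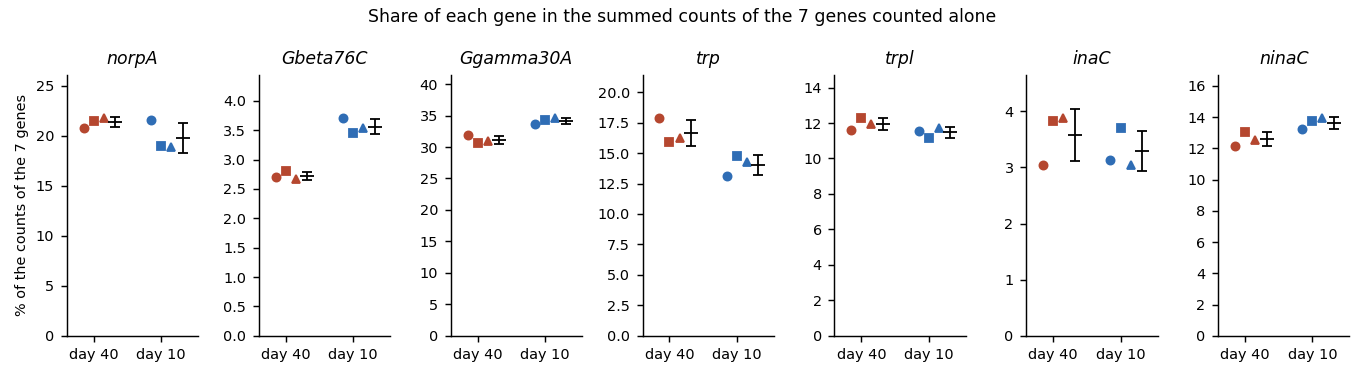
Share of each gene in the summed counts of the 7 genes counted alone, in percent (y axis, linear from 0), at day 40 (red, left) and day 10 (blue, right). Circles, squares and triangles are replicates 1, 2 and 3, and black bars give the mean and SD. Gbeta76C, Ggamma30A and ninaC were lower at day 40 and trp higher in every library, with no overlap between the ages.

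Scaling the libraries to the summed counts of 3 photoreceptor genes, chp, Arr1 and Arr2, in place of all genes was also chosen after seeing the data. In this fit the log2 change of trp was 0.32 and that of Gbeta76C -0.31, with adjusted p-values of 0.226 and 0.428 in edgeR, and no member was called.

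Ratios within the pathway were set for 7 pairs. The ratio of Gbeta76C to the Galphaq group was 0.442, 0.533 and 0.472 at day 40, against 0.621, 0.612 and 0.597 at day 10, with no overlap. The ratio of Ggamma30A to Gbeta76C was 11.8, 10.9 and 11.6 at day 40, against 9.09, 9.93 and 9.80 at day 10, also with no overlap. No share over other gene pairs was computed as a background. Gbeta76C is in both ratios, so they are not separate observations. Both had a two-sided exact permutation p of 0.1, the smallest possible, and an adjusted p of 0.28 over the 7 ratios, so neither passed. With exonic part counts neither ratio separated the ages. The log2 difference of Gbeta76C to the Galphaq group was then -0.25 in place of -0.34 (exact p = 0.3), and that of Ggamma30A to Gbeta76C was 0.12 in place of 0.25 (exact p = 0.5). For channel composition, trpl to trp was 0.719 ± 0.0642 at day 40 and 0.819 ± 0.0615 at day 10 (SD, n = 3 each), and the ages overlapped. The ratios of norpA to the Galphaq group, inaC to the inaD group and ninaC to the inaD group overlapped as well. The summed 9 rows relative to ninaE were 0.303, 0.394 and 0.412 at day 40, against 0.280, 0.380 and 0.356 at day 10, which overlapped (exact p = 0.5).

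The wider pathway was read from a list of 37 genes around the cascade, of which 36 were matched, in 35 rows. One of the 35 rows was called higher at day 40 and 0 lower, beside 2.14% of all tested rows called higher, and 23 of the 35 had a log2 change above 0, beside 48.9% of all rows. The median log2 change of the list was 0.12, beside -0.0067 over all rows. The gene called was pinta, which encodes a retinoid-binding protein of chromophore metabolism in the pigment cells. Its normalized counts were 1463, 1239 and 1133 at day 40, against 904, 817 and 657 at day 10. All 3 day 40 values lay above those of day 10, with a log2 change of 0.69 (SE 0.14, adjusted p = 0.0406 in edgeR). Of 3 rows listed beforehand for cone and pigment cells, Crys (a lens protein of cone cells) was called lower at day 40 (log2 change -1.93). The group of santa-maria and CG5973, also a row of the wider pathway list, went the other way without overlap (log2 change 0.39, adjusted p = 0.107 in edgeR). For ct the log2 change was -0.26 and the ages overlapped. The sum of the 3 rows ranged over 9528 to 9649 at day 40 and 8333 to 11942 at day 10. The santa-maria group made up much of it, with means of 4505 at day 40 and 3424 at day 10. The sum is therefore no measure of cone and pigment cells. The part of these cells in the change of pinta was not tested.

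Among the rhodopsins, 0 of 7 were called. The most abundant, ninaE, had 690935, 569307 and 508908 at day 40, against 899024, 614563 and 453868 at day 10, and Rh4, a rhodopsin of inner photoreceptors, averaged 22959 ± 1347 at day 40 and 15613 ± 4464 at day 10 (SD, n = 3 each; log2 change 0.56, adjusted p = 0.231 in edgeR). In the phosphoinositide and diacylglycerol cycle, which restores the substrate of norpA, 0 of 7 were called. Here rdgA, a diacylglycerol kinase, had a log2 change of -0.033 and rdgB, a phosphatidylinositol transfer protein, one of 0.20. For shut-off and calcium handling, 0 of 7 were called, and the arrestin genes Arr2 and Arr1, which stop active rhodopsin, had log2 changes of 0.12 and -0.31. In chromophore supply and rhodopsin maturation, where pinta was the 1 of 7 rows called, the most abundant rows were the santa-maria group (a scavenger receptor for carotenoid uptake) at 0.39 and the row of Xport-A and Xport-B (chaperones of TRP and rhodopsin) at 0.44, with adjusted p-values of 0.107 and 0.205. For rhabdomere structure and anchoring, 0 of 7 were called. There chp, a photoreceptor cell surface protein, had a log2 change of 0.033 and the group of Mms19 and rtp (retinophilin, which binds the ninaC protein) one of 0.13.

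**Figure D3:**
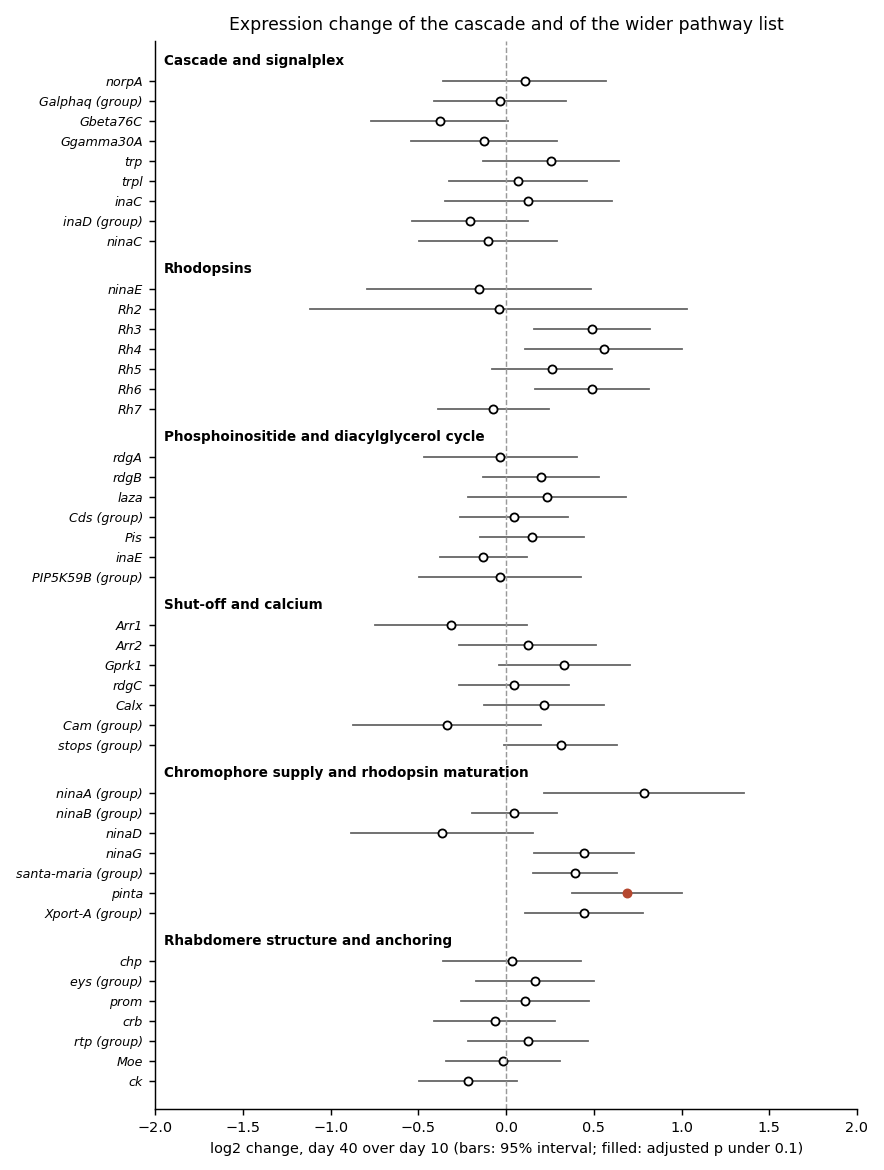
Log2 change of day 40 over day 10 (x axis) with 95% intervals from the edgeR fit, for the 9 genes of the cascade and for the 35 rows of the wider list by role. Filled points have an adjusted p under 0.1. Only pinta, at 0.69, is filled, and the 9 members lie between -0.38 and 0.26.

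By the profile over the 6 libraries, the genes most like the mean of the 9 members were CG17739, Hn, dtn, chp and the group of mir-4956 and Sxl. Likeness was the root mean square difference of centred, library-scaled log2 counts over the 6 libraries, among 2121 genes whose normalized counts averaged 1000 or more. CG17739 was the nearest at 0.0404 and chp the fourth at 0.0484, beside a median of 0.203 for all candidates. The members themselves differed from their own mean by 0.0493 (Ggamma30A) to 0.176 (Gbeta76C), so some non-members were nearer to the mean profile than any member was.

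Usage was the count of an exonic part or splice junction divided by its gene's count, per library and in percent. It was read for 259 features of the 9 rows, of which 254 passed the minimum mean normalized count of 5. None of the 254 was called at an adjusted p under 0.05, and none of all 96111 features was either, a share of 0%. The study, with the program JunctionSeq, did report differential usage between these ages in eyes at an FDR under 0.05. The lack of calls here therefore does not show that usage was unchanged, in the members or elsewhere. At an unadjusted p under 0.05 there were 4 member features (1.57%), beside 3.33% of all features. The percentages of the 2 ages did not overlap for 27 member features (10.6%), beside 10.1% of all features. The members were thus near the background by overlap. By unadjusted p they were below it here, but above it without day 10 replicate 1 (8.70%, beside 5.85% of all features). Features of 1 gene are not independent, so neither an excess nor a deficit is read from these shares. By member, the share that did not overlap ran from 2.63% (the Galphaq group) to 24.2% (ninaC, 8 of 33 features). DESeq2 called none of the member features, beside 0.0645% of all features, and gave 6 of the 254 an unadjusted p under 0.05, beside 2.48% of all features.

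Much of the spread in usage came with 1 library. In 89 of the 254 member features (35.0%), the value of day 10 replicate 1 lay outside the range of the other 5 libraries by more than that range, beside 17.6% of all features tested. The next highest library, day 40 replicate 1, did so for 14 member features. Of the 89, 64 lay below the other libraries and 25 above. In Gbeta76C, exonic part E5 (3L, 19689272 to 19689358) held 31.2, 30.1 and 30.04% of the gene count at day 40, against 9.04, 28.8 and 30.6% at day 10. The last part, E6, held 52.0, 52.7 and 56.2% at day 40, against 76.8, 46.2 and 45.1% at day 10. Day 10 replicate 1 was thus low in E5, where the other 5 libraries were close to each other, and high in E6. In E6 the day 40 values lay above the other 2 of day 10, and without replicate 1 the log2 change was 0.46 (unadjusted p = 0.0223, adjusted p = 0.801 in edgeR). The same library was apart in ninaC part E9, with 2.25%, beside 12.4 and 13.3% in the other day 10 libraries and 10.4 to 12.2% at day 40. In the inaC junction J19 it had 0.723%, beside 11.4 and 13.1% at day 10 and 10.6 to 12.2% at day 40. In part E13 of the Galphaq group it had 1.76%, beside 14.4 and 14.8% at day 10 and 14.4 to 15.2% at day 40. This library also had 21.2 junction counts per 100 gene counts, the lowest of the 6 libraries (23.9 to 27.6 in the others), and its part in usage differences was not tested. Without it, 22 of 253 member features (8.70%) had an unadjusted p under 0.05, beside 5.85% of all features, and the lowest adjusted p among them was 0.530. That feature was part E2 of Ggamma30A, with a log2 change of 0.74 in this fit, and E3 and E4 of this gene had 0.65 and 0.64. With all 6 libraries the ages overlapped in each of these parts.

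**Figure D4:**
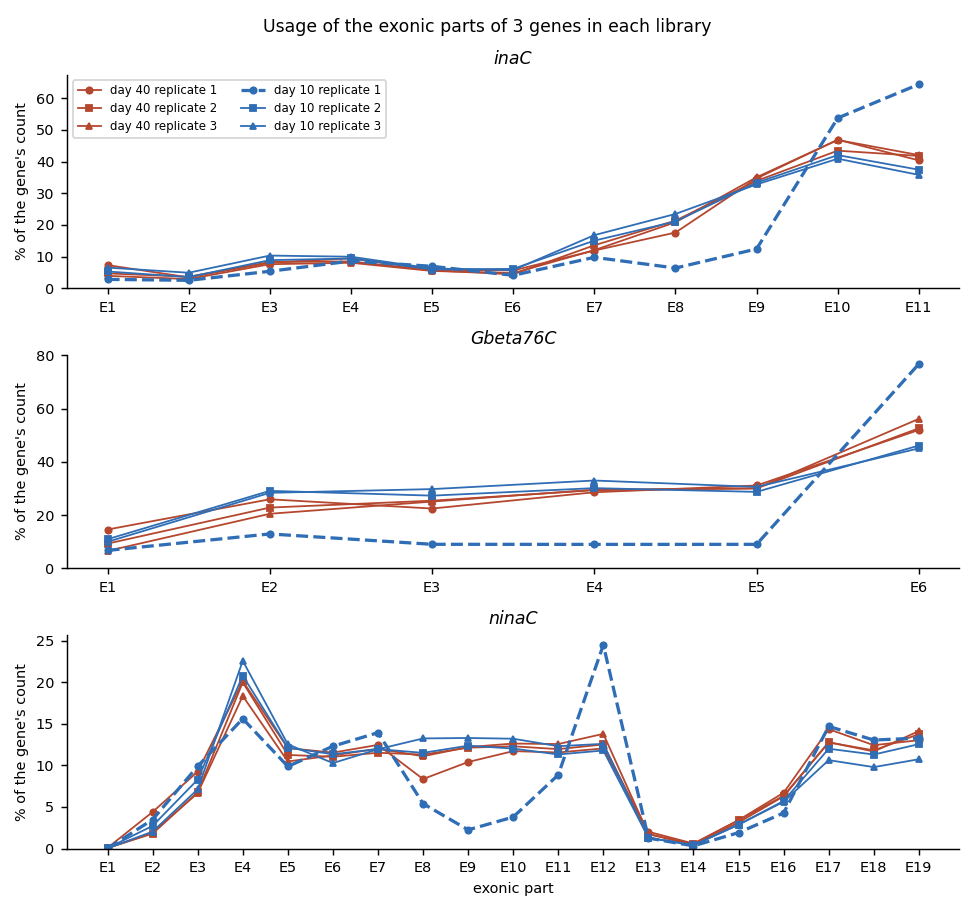
Counts of each exonic part in percent of the gene count (y axis, linear from 0) for inaC, Gbeta76C and ninaC, with the parts in genome order on the x axis. Red lines are the 3 day 40 libraries and blue lines the 3 day 10 libraries, with replicate 1 of day 10 dashed. The dashed line departs from the other 5 in the middle of each gene, for example at 9.04% in Gbeta76C E5.

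The 4 member features with an unadjusted p under 0.05 lay in norpA, Ggamma30A and ninaC, and in each the ages did not overlap. In norpA they were the small part E4 (X, 4332796 to 4332840, in 4 of the 6 transcripts) and J25, the junction that joins E4 to the common part E6. E4 held 0.595, 0.704 and 0.765% of the norpA count at day 40, against 1.04, 1.00 and 1.03% at day 10, with a log2 change of -0.59 (SE 0.21, unadjusted p = 0.0229). J25 held 0.578 ± 0.0650% at day 40 and 0.895 ± 0.0829% at day 10 (log2 change -0.64, adjusted p = 1.00 in edgeR's quasi-likelihood test, SD, n = 3 each). The alternative junction J26 runs from part E5, which belongs to the other 2 transcripts, into the same position. The junctions were therefore also read against each other, which was added after seeing the data. J25 took 8.31, 9.91 and 11.1% of the junction counts into this position at day 40, against 16.9, 13.3 and 14.3% at day 10, out of 1744 to 3202 counts per library. Every day 40 value was lower (exact permutation p = 0.1, the smallest possible, and adjusted p = 0.65 over 26 junction shares). J26 thus carried most norpA counts there at both ages. The J25 share rests on the same J25 counts as its usage, so it is no separate evidence. Of the 26 shares, 4 did not overlap between the ages, J25 with its mirror J26 and J14 with J17 in Ggamma30A. Junction shares of other genes were not computed as a background, so no excess is read from this count.

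Other features of norpA followed in part. E20 (X, 4364880 to 4365408), at the far end of the gene, held 4.23 ± 0.180% at day 40 and 3.10 ± 0.394% at day 10, with no overlap (SD, n = 3 each; log2 change 0.47). E1 and J22, at the near end, had log2 changes of -0.22 and -0.36 with overlapping ages, and of -0.12 and -0.17 without day 40 replicate 1. The gene also has a pair of alternative exons of 80 bases each, E9 and E10. Of the junction counts that leave the preceding part, J29, which leads to E9, took 6.75 ± 2.52% at day 40 and 7.03 ± 2.86% at day 10 (SD, n = 3 each). Of those that enter the following part, J31 from E9 took 4.65 ± 1.99% at day 40 and 4.03 ± 1.31% at day 10, so E10 carried most junction counts at both ages with no detectable difference.

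In Ggamma30A, E6 (2L, 9259268 to 9259585), a part of 1 of the 8 transcripts, held 0.0886, 0.138 and 0.0774% at day 40, against 0.0531, 0.0573 and 0.0582% at day 10, from 30 to 76 counts per library. The day 40 values were higher in all 3 libraries (log2 change 0.81, SE 0.28, unadjusted p = 0.0181), though this part carries very little of the gene. Part E5 held 12.9 ± 2.33% at day 40 and 9.99 ± 0.564% at day 10 (SD, n = 3 each). Of the junction counts into part E7, J14 took 29.8 ± 1.27% at day 40 and 36.9 ± 4.17% at day 10 (SD, n = 3 each). J17, which comes from E5, took 69.9, 68.7 and 71.4% at day 40, against 67.8, 61.0 and 60.1% at day 10. The ages did not overlap (exact permutation p = 0.1, the smallest possible, adjusted p = 0.65 over 26 shares), but replicate 1 of day 10 lay close to the day 40 values. As a share of the whole gene, J14 held 2.91, 2.49 and 2.17% at day 40, against 2.40, 3.40 and 3.40% at day 10. The overlap came from day 10 replicate 1, without which the log2 change was -0.46 (unadjusted p = 0.0255, adjusted p = 0.816 in edgeR) in place of -0.28. The parts E9, E10 and E11 at the high-coordinate end of Ggamma30A held 58.3, 17.3 and 9.41% at day 40, against 60.2, 17.6 and 9.51% at day 10, with log2 changes of -0.11, -0.026 and -0.0022.

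In ninaC, E13 (2L, 7382433 to 7382661, in 2 of the 4 transcripts) held 2.02, 1.74 and 1.75% at day 40, against 1.26, 1.30 and 1.27% at day 10. The day 10 values were nearly equal and all lay below day 40 (log2 change 0.53, SE 0.21, unadjusted p = 0.0332). E1, with at most 18 counts in a library, held 0.0717 ± 0.0160% at day 40 and 0.0225 ± 0.0244% at day 10 (SD, n = 3 each). As shares of the ninaC count, E14, E15, E16, J29, J30 and J31, near E13, were also higher at day 40 without overlap. Their unadjusted p-values were 0.0816 to 0.200 in edgeR. J30, for example, held 0.577, 0.448 and 0.491% at day 40, against 0.411, 0.368 and 0.327% at day 10. When J30 was set against J29 at their shared end, it took 19.7 ± 3.43% at day 40 and 20.1 ± 7.36% at day 10, which overlapped.

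For trpl, 2 parts and a junction at 1 end of the gene were followed. E3 (2R, 9753853 to 9753977) held 3.41, 1.87 and 1.84% at day 40, against 2.47, 2.36 and 1.86% at day 10. E4 (2R, 9755614 to 9755759) held 3.36, 2.65 and 2.66% at day 40, against 1.36, 3.07 and 2.70% at day 10, so neither part separated the ages. J19, the junction between them, held 0.193, 0.172 and 0.151% at day 40, against 0.171, 0.296 and 0.366% at day 10, with a log2 change of -0.66 (SE 0.32, unadjusted p = 0.0724). Day 10 replicate 1 again lay with the day 40 libraries, and without it the log2 change was -0.95, while without day 10 replicate 3 it was -0.42. Against the other 2 junctions into E4, J19 overlapped between the ages, as did J18 (63.1 ± 7.32% at day 40 and 56.2 ± 6.92% at day 10, SD, n = 3 each).

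**Figure D5:**
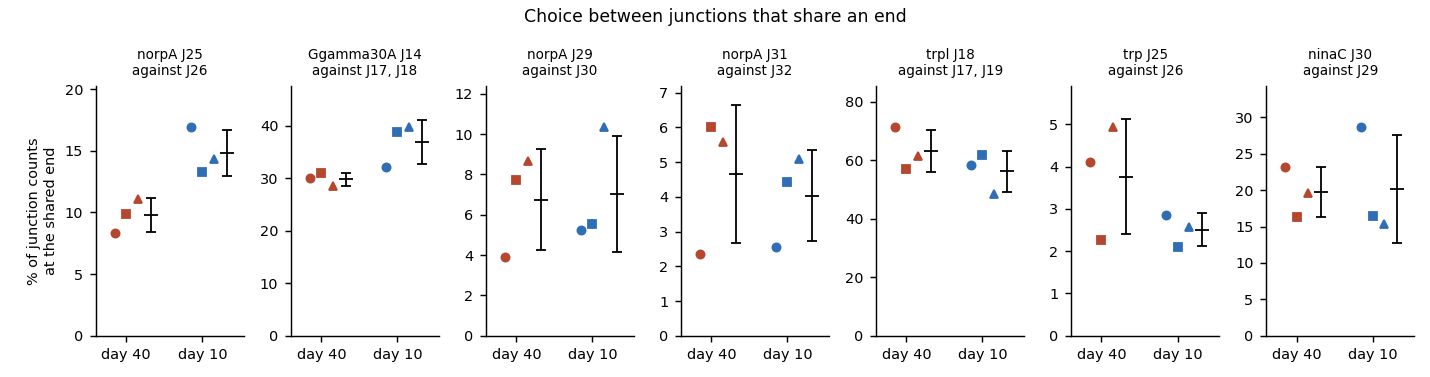
Share of 1 junction among the annotated junctions that share an end with it, in percent of their counts (y axis, linear from 0), at day 40 (red, left) and day 10 (blue, right). Circles, squares and triangles are replicates 1, 2 and 3, and black bars give the mean and SD. The ages are apart for norpA J25 (9.76% at day 40 and 14.9% at day 10) and Ggamma30A J14 and overlap in the other panels.

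The remaining members gave no feature with an unadjusted p under 0.05. The features with the lowest p were E9 and J20 in inaC, E3 and J18 in the inaD group, E5 and J11 in Gbeta76C and J22 and J24 in the Galphaq group, with log2 changes of 0.49 to 1.02. For the first 6 of these, day 10 replicate 1 had the lowest value of the 6 libraries, and in inaD part E3, for example, the values were 40.8, 34.3 and 31.9% at day 40, against 12.1, 29.6 and 36.4% at day 10. Without that library the log2 change was 0.095 for inaC E9 (0.67 with all 6), 0.15 for inaC J20 (0.49), 0.17 for inaD E3 (0.76), 0.26 for inaD J18 (0.64), 0.051 for Gbeta76C E5 (0.71) and 0.14 for Gbeta76C J11 (0.84). In the Galphaq group, the log2 change of J22 was 1.02 with all libraries and 0.49 without day 40 replicate 1, which had its highest value, and that of J24 was 0.67 with all libraries and 0.40 without day 10 replicate 3, which had its lowest. In trp, J25, which differs from J26 by a part of 20 bases, took 3.76 ± 1.37% of their shared counts at day 40 and 2.50 ± 0.387% at day 10 (SD, n = 3 each).

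The members held 8 junctions absent from the annotation, and 2 of them, both in trp, were seen in 1 library each. N30 (3R, 29914733 to 29914852) had 1223 counts in day 40 replicate 3, which is 3.40% of the trp count there (95% Wilson interval 3.21 to 3.59%, for counting error only), and 0 in the other 5 libraries. A count of 0 in those libraries allows a share of up to 0.0136%. N31 had 89 counts in day 10 replicate 1 and 0 elsewhere. Over the whole series, 10 of 712 new junctions had counts in 1 library only, and N30 was the third most counted of these. The edgeR test did not call N30 (unadjusted p = 0.179), while diffSpliceDGE called it. The new junctions of norpA, trpl and Ggamma30A (N41, N32, N33, N20, N21 and N22) each held at most 0.181% of their gene in any library, and their ages overlapped.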

How the data were processed

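The authors deposited raw read counts on genes, on exonic parts and on known or new junctions, 1 file a library, and the labels name Trimmomatic, TopHat and the BDGP6 build without versions. The counting program is not given in the sources used here. A second deposited table holds the authors' own comparison (fold changes and p-values), which were not used. Only its chromosomes, start and end positions, transcripts and types of features were used, with 1 added to the starts. Strand was not used in that table, so overlapping and antisense genes cannot be told apart. The members and gene lists were chosen with earlier results of these data known.

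Expression was tested on 9255 rows with edgeR 4.0.16 in R 4.3.3 (TMM, default low-count filter, quasi-likelihood test, Benjamini-Hochberg, adjusted p under 0.1). Usage was tested on 96111 features as the interaction of feature and age, against the rest of the gene, with library terms (mean normalized count of at least 5, adjusted p under 0.05). Both were tested on simulated data. Median-ratio size factors gave the normalized counts. Counts of each pair of libraries of 1 age differed beyond sampling noise, and each was taken as 1 replicate. Nothing used here says whether they came from separate cohorts, so p-values measure only the spread between these libraries, which may be partly technical. Alternatives were DESeq2 1.42.0, diffSpliceDGE, other scalings, filters and thresholds, single genes only, exonic parts only, each library left out and a replicate block. Features named are the 2 with the lowest p per member, those with p under 0.05 and no overlap, trpl E3 and E4, features of members that the paper's tables list for photoreceptors, and new junctions. Others are cited where day 10 replicate 1 or a neighbouring feature is described. List genes named are those called and otherwise the 2 with the highest mean count per sublist. PI4KIIIalpha was not matched. No sequences are printed.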

Additional observations from a re-analysis of the deposited data

How the results depend on the processing

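The number of members called for expression was 0 in the fit reported and 0 to 1 with each library left out, the 1 being Gbeta76C without day 10 replicate 3. The number of all genes called was 381, and was 221 at an adjusted p under 0.05, 601 in DESeq2, 230 with libraries scaled to chp, Arr1 and Arr2 (added after seeing the data) and 116 to 459 with each library left out. The number of member features called for usage was 0, and 1 in diffSpliceDGE, which was trp N30. Over all features it was 0, and 2 at an adjusted p under 0.1, 2 with single genes only, 2 with exonic parts only, 62 in DESeq2, 33 in diffSpliceDGE and 0 to 3 with each library left out. The cause of these differences was not tested.

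Same-numbered libraries did not stand out as pairs: they had correlations of 0.000099, -0.0142 and 0.146 in their deviations from the age means. Differently numbered libraries ranged from -0.170 to 0.161. With so few libraries this cannot tell whether same-numbered ones shared a cohort or batch. The replicate block changed no member's call, with 464 of all genes called and a log2 change of -0.36 for Gbeta76C. The paired permutation of the ratios cannot go below 0.25 with 3 pairs.

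Several small differences that were not called changed sign with 1 library left out. The log2 expression change then ran from -0.084 to 0.30 for norpA, -0.19 to 0.11 for Galphaq, -0.080 to 0.20 for trpl and -0.077 to 0.27 for inaC. The log2 usage change ran from -0.18 to 0.022 for Ggamma30A E9, -0.15 to 0.091 for Ggamma30A E10, -0.23 to 0.16 for Ggamma30A E11, -0.16 to 0.38 for Ggamma30A N22, -0.26 to 0.19 for trpl E3, -0.0057 to 0.59 for trpl E4, -0.22 to 0.57 for trpl N32, -0.051 to 0.75 for trpl N33 and -0.41 to 0.15 for norpA N41. The difference in junction share in percentage points ran from -2.83 to 3.81 for ninaC J30, -1.23 to 1.37 for norpA J29 and -0.119 to 1.76 for norpA J31. The log2 difference of the summed members to ninaE ran from -0.0067 to 0.26. The Galphaq group changed sign to 0.034 when scaled to chp, Arr1 and Arr2, and Ggamma30A E10 and E11 to 0.016 and 0.028 in diffSpliceDGE. The cause was not tested.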
